A study of Mus musculus with 10 samples.

Results

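Ccl19, Ccl21a and Cxcl13 are the homeostatic chemokines of the lymph node, and Ccr7 and Cxcr5 encode their receptors. These 5 genes, of 32245 gene symbols in all, were chosen by name and read in all 5 gene libraries of the series, with the counts of all gene IDs of a symbol added up. All nodes came from 8-week-old female BALB/C mice of WT genotype, and the axillary node was taken except in the mediastinal atlas. In the 4T1 group and in the 67NR group, cells of these mouse mammary carcinoma lines had been placed in the 4th mammary pad, and nodes were taken after 18 days at a tumour size of 500 mm3. The LPS group had received bacterial lipopolysaccharide under the skin and was taken after 72 hours, and the naive group was untreated. Each condition had at least 3 mice, but no map from cells to mice was used here, so cells of a hashtag are 1 pooled sample. The stromal library held endothelial cells and fibroblasts of 4T1, 67NR, LPS and naive nodes, a myeloid and stromal library and a T cell library held 4T1, 67NR and naive nodes, and 2 atlases held naive axillary and naive mediastinal nodes with 24 surface antibodies.

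CCL19 and CCL21 bind CCR7 and gather naive T cells and dendritic cells in the T zone, while CXCL13 binds CXCR5 and gathers B cells in follicles. In mouse nodes, T-zone reticular fibroblasts make Ccl19 and Ccl21a, high endothelial venules and lymphatic vessels also make Ccl21a, and follicular dendritic and marginal reticular cells make Cxcl13. Lymphotoxin and the non-canonical NF-kB pathway keep these ligand genes on, and cells that switch between zones change their balance of CCR7 and CXCR5.

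In GRCm38 coordinates, Ccl19 (ENSMUSG00000071005) lies at chr4:42754525-42756577 and Ccl21a (ENSMUSG00000094686) at chr4:42772860-42773993, both on the minus strand. Both lie wholly within 4930578G10Rik, a gene annotated on the plus strand, and whether counting used the strand is not given in the sources used here. Cxcl13 (ENSMUSG00000023078) lies at chr5:95956951-95961068 on the plus strand. Ccr7 (ENSMUSG00000037944) lies at chr11:99144196-99155077 and Cxcr5 (ENSMUSG00000047880) at chr9:44511787-44561877, both on the minus strand, and 110 bases of Cxcr5 overlap Bcl9l. Near-identical copies of Ccl19 and Ccl21a exist in the mouse genome, and of the copies listed in the tables, 1 Ccl21a copy held 3 UMIs in the stromal library and the others held 0 in all 5 libraries. The split of reads between such copies is uncertain, so Ccl21a here stands for what was counted under that symbol.

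The stretches just ahead of the first annotated exon of the 3 ligand genes are printed from RefSeq, build GRCm38.p6, to show what lies ahead of the genes whose levels follow. Capitals mark TATAAA and, as well, CATAAA and GGAGANTT, the last a stretch of motifs bound by non-canonical NF-kB.
Ccl19 chr4:42756578-42756615 minus strand: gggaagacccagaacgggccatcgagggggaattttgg
Ccl21a chr4:42773994-42774241 minus strand: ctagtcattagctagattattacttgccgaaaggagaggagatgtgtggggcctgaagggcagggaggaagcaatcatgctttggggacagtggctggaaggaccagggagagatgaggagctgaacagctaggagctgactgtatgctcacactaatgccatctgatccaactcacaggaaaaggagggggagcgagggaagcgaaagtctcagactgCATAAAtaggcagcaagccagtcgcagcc
Cxcl13 chr5:95956689-95956938 plus strand: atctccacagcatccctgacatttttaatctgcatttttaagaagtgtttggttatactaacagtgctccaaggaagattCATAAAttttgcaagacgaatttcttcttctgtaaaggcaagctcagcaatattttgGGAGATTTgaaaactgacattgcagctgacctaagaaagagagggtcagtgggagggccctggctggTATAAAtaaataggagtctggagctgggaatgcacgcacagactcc
The Ccl19 stretch has 38 bases because an annotated exon lies just ahead of it, and none of the motifs was found in it. In Cxcl13, GGAGANTT begins 113 bases, TATAAA 46 bases and CATAAA 170 bases ahead of the end of the stretch. In Ccl21a, CATAAA begins 29 bases ahead of the end, and GGAGANTT and TATAAA were not found. Of 32851 such windows of 250 bases, searched on both strands, 3.99% held GGAGANTT, 12.4% TATAAA and 10.8% CATAAA. These matches describe the letters and do not show use by a factor.

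The cells used came to 2350 (stromal), 5412 (myeloid and stromal), 7210 (T cell), 11503 (axillary atlas) and 25148 (mediastinal atlas). Gene UMIs totalled 36622159 to 121022621 per library, and median UMIs per cell lay between 10802.5 and 12899 in the 3 hashtagged libraries, at 6653 in the axillary atlas and at 2272 in the mediastinal atlas. Cells were classed by marker genes that include none of the 5 genes, with a scoring rule that was set on these data, and a class is named "-like" for that reason. A single lineage was given to 75.9 to 97.0% of cells in the hashtagged libraries, to 82.9% in the axillary atlas and to 40.5% in the mediastinal atlas. Pairs of libraries shared 3 to 80 cell barcodes. Levels are UMIs per 1000000 UMIs of all cells of a class (CPM), and the 95% intervals given for levels and ratios are exact and cover counting error only.

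Ccl19, which encodes a secreted ligand of CCR7, was highest in reticular fibroblast-like cells, those with at least 3 of the 5 markers Bst1, Grem1, Il7, Enpp2 and Tnfsf13b. In the stromal library, 185 reticular cells made up 7.87% of cells and held 74.2% of all Ccl19 UMIs. Their Ccl19 level was 3031 CPM, against 181 CPM in other fibroblast-like cells and 69.7 CPM in adventitial fibroblast-like cells, with at least 3 of Pi16, Dpp4, Cd248, Cd55 and Sema3c. In the myeloid and stromal library, 104 reticular cells held 59.9% of Ccl19 UMIs at 5034 CPM, against 175 CPM in other and 61.2 CPM in adventitial fibroblast-like cells. The order of the 3 classes was the same in both libraries. The 43 perivascular fibroblast-like cells of the stromal library, gated on mural genes such as Rgs5 and Des, came between with 1178 CPM of Ccl19.

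Ccl21a, the gene of the second CCR7 ligand, which is retained on surfaces by its charged tail, shared the reticular source and had an endothelial one. Its level in reticular cells was 13290 CPM in the stromal library and 19329 CPM in the myeloid and stromal library, against 132 and 116 CPM in adventitial cells and 51.4 and 73.0 CPM in other fibroblast-like cells. Reticular cells held 59.6% and 82.2% of all Ccl21a UMIs in those libraries. The 106 high endothelial venule-like cells of the stromal library, gated on Glycam1, Chst4, Fut7, Ubd and Gcnt1, had 7387 CPM of Ccl21a and 26.8% of its UMIs. They held only 2 Ccl19 UMIs (0.890 CPM) and 0 Cxcl13 UMIs, which allows up to 1.33 CPM. The 591 other blood endothelial-like cells had 85.6 CPM of Ccl21a, and 60 lymphatic endothelial-like cells had 1764 CPM, with 35.0% of those UMIs in 1 cell. Venule cells thus carried Ccl21a without the Ccl19 and Cxcl13 that reticular cells carried beside it.

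**Figure D1:**
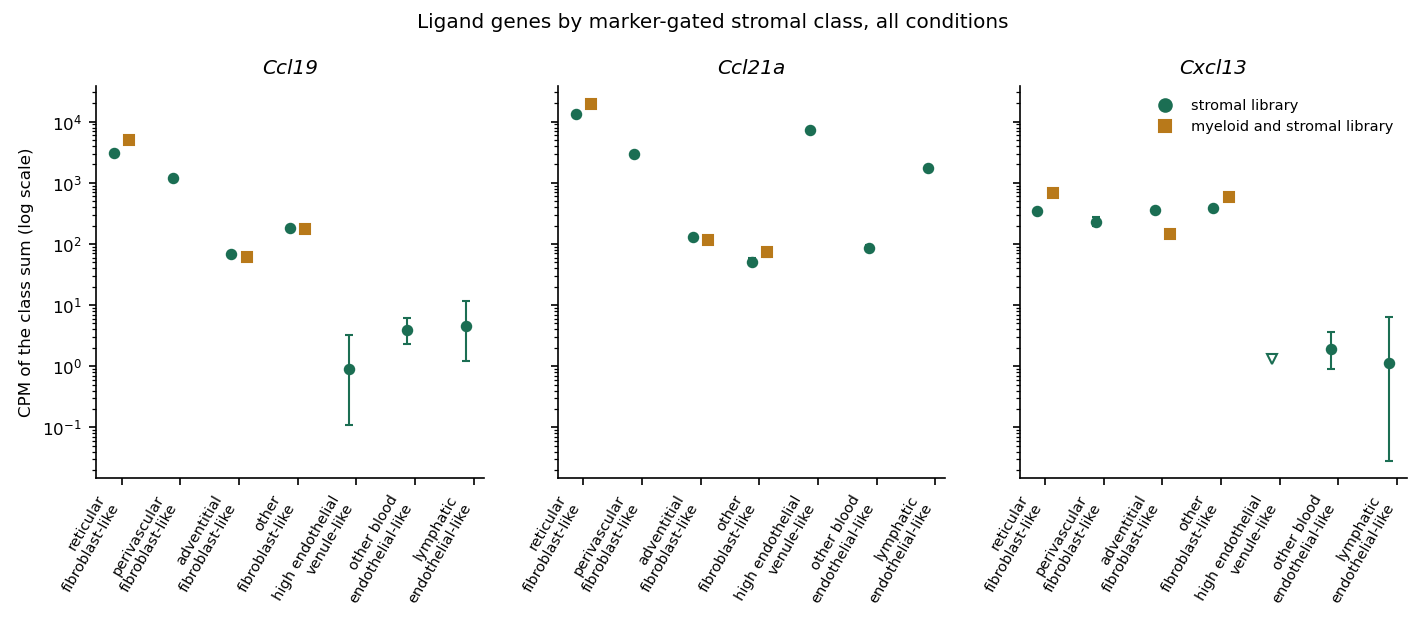
Level of Ccl19, Ccl21a and Cxcl13 in CPM on a log axis, by stromal class, with circles for the stromal library, squares for the myeloid and stromal library, bars for 95% Poisson intervals and open triangles at the level of 3 UMIs for a class with 0 UMIs. Ccl19 and Ccl21a peak in reticular cells, Ccl21a is also high in high endothelial venule-like cells, and Cxcl13 lies between 147 and 670 CPM in the reticular, adventitial and other fibroblast-like classes.

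Ligand UMIs also stood in leukocytes of the myeloid and stromal library. There Ccl21a had a UMI in 12.9% of neutrophil-like cells (25.7 CPM) and in 18.8% of T-like cells (34.2 CPM), which should lack it, against 90.4% of reticular cells, at medians of 4496, 10762 and 12552 UMIs, and Ccl19 had one in 7.10% and Cxcl13 in 2.87% of neutrophil-like cells. The 6922 T-like cells of the T cell library, which held few other cells, had 1 Ccl19 UMI, 6 Ccl21a UMIs and 51 Cxcl13 UMIs. Levels at or below those of neutrophil-like and T-like cells are read here as background, which takes in the Ccl21a of adventitial cells in 4T1 (4.88 CPM) and naive nodes (7.58 CPM) of that library. The part of free RNA and of doublets within a condition in these UMIs was not tested. In the axillary atlas, which held almost no ligand UMIs, 114 migratory dendritic-like cells, 0.991% of cells, had 14 Ccl19 UMIs (17.9 CPM, 9.80 to 30.1) and 48.3% of its Ccl19, against 3 UMIs (0.0650 CPM) in 5816 T-like cells. Naive migratory dendritic-like cells of the myeloid and stromal library had 19.4 CPM of Ccl19, near the 15.3 CPM of naive neutrophil-like cells there. In 4T1 nodes the dendritic-like and neutrophil-like classes had 9.86 and 15.1 CPM. In 67NR nodes they had 109 and 11.7 CPM, with 43.3% of those dendritic-like UMIs in 1 cell.

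Cxcl13, the gene of the CXCR5 ligand, was spread over more classes, and much of it stood in a few cells. The 755 adventitial cells of the stromal library held 54.4% of its UMIs at 355 CPM, against 347 CPM in reticular and 387 CPM in other fibroblast-like cells. In the myeloid and stromal library the levels were 670 CPM in reticular cells, with 63.2% of UMIs in 1 cell, 147 CPM in adventitial cells and 586 CPM in other fibroblast-like cells, with 40.9% in 1 cell. The fibroblast-like classes of that library together held a minority of its Cxcl13, since cells without a single lineage, 24.1% of cells, held 64.3% of the UMIs.

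Those Cxcl13-rich cells carried the markers of follicular dendritic cells, the stromal cells that hold antigen in B cell follicles. Of 6 markers (Cr2, Fcer2a, Coch, Sox9, Clu and Mfge8), at least 4 with under 3 B cell markers were found in 30 cells of the myeloid and stromal library, whatever their lineage call, and these 0.554% of cells held 56.5% of its Cxcl13 UMIs. Of the 30 cells, 29 held Cxcl13, 27 held Cr2, the complement receptor gene of B and follicular dendritic cells, and 6 held Ptprc, the gene of the leukocyte antigen CD45. With at least 5 markers, 15 cells remained, which had 11 to 1448 Cxcl13 UMIs each, with a median of 376. Their Cxcl13 level was 20648 CPM, against 670 CPM in reticular cells of that library, while their Ccl19 was 53.9 CPM, against 5034 CPM, and their Ccl21a 3.37 CPM, against 19329 CPM. They stood in all conditions of that library, as 4 cells of 4T1, 8 of 67NR and 3 of naive nodes, at 42625, 15753 and 22787 CPM of Cxcl13. The most loaded cell held 70.0% of the 4T1, 44.3% of the 67NR and 49.8% of the naive UMIs, so these levels are not ranked. In the stromal library 2 cells had at least 5 markers, 1 in 4T1 with 530 and 1 in 67NR with 275 Cxcl13 UMIs, and together they held 8.83% of the Cxcl13 of that library. With at least 4 markers there were 12 cells in that library, 5 of 4T1, 4 of 67NR and 3 of naive nodes, and only those 2 held Cxcl13, so 4 markers did not mark Cxcl13 cells there. Both settings of the marker number were chosen after Cxcl13 values had been seen, and Cxcl13 is not among the markers. The 30 cells with 4 or more markers also had 3321 CPM of Ccl19, with 53.3% of those UMIs in 1 cell.

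In several groups of dendritic-like, monocyte-like and B-like cells, 1 cell held most of the Cxcl13 UMIs. The migratory dendritic-like class had 1 cell with 99.6% of its Cxcl13 UMIs among the 67NR cells of the stromal library and 1 with 81.1% among the 67NR cells of the myeloid and stromal library. Each of these 2 cells held all 6 follicular dendritic markers, and they had 76 and 70 Cr2 UMIs. Among naive migratory dendritic-like cells of the myeloid and stromal library 50.7% of 227 Cxcl13 UMIs stood in a cell of another kind, with 2 of the markers, 0 Cr2 UMIs and 6 Ptprc UMIs. Among 67NR monocyte-like cells there 90.2% of 92 UMIs (34.3 CPM) stood in 1 cell. In B-like cells of the myeloid and stromal library 94.1% of Cxcl13 UMIs stood in 1 cell. Of the 20 cells with most Cxcl13 there, 17 held Cr2 or Madcam1, the addressin gene of marginal reticular cells, while in the stromal library 4 of the top 20 did and 17 were fibroblast-like. Only 4 fibroblast-like cells of the stromal library and 1 of the myeloid and stromal library had both Madcam1 and Tnfsf11, the marginal reticular markers, and in the stromal library 4.36% of Cxcl13 UMIs stood in those 4 cells.

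Ccl19 and Ccl21a followed the number of reticular markers, and Cxcl13 did not. Among fibroblast-like cells outside the adventitial class in the stromal library, cells with 0, 1, 2, 3, 4 and 5 of the 5 markers had 57.8, 180, 543, 1353, 3831 and 4911 CPM of Ccl19. Ccl21a levels over the same steps were 17.8, 31.5, 1106, 3283, 12893 and 30730 CPM. Cxcl13 levels were 73.3, 382, 618, 416, 327 and 226 CPM, highest at 2 markers. In the myeloid and stromal library Ccl19 had 51.0 CPM at 0 and 6879 CPM at 5 markers, Ccl21a 29.1 and 27966 CPM, and Cxcl13 peaked at 3 markers with 1548 CPM, against 102 CPM at 0 and 117 CPM at 5. A single reticular cell of that library held 592 of the 936 Cxcl13 UMIs of its class, so the place of this peak is uncertain. Few single fibroblast-like cells held much of either gene, with at least 10 UMIs as the mark. Of 1301 such cells of the stromal library, 182 held Cxcl13, 139 held Ccl21a and 15 held both. The 15 were 8.24% of the Cxcl13 cells and 10.8% of the Ccl21a cells. In the myeloid and stromal library 57 of 576 cells held Cxcl13, 104 Ccl21a and 9 both, 15.8% and 8.65%. In both libraries these shares lay near those of each gene over the whole class, so they do not show that the genes exclude each other. That was not tested. Most of the overlap in the stromal library was reticular. There, of 185 cells, 23 held Cxcl13, 109 Ccl21a and 11 both, 47.8% of the Cxcl13 cells and 10.1% of the Ccl21a cells. Deeper cells detect more markers, and the part of depth in these steps was not tested.

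**Figure D2:**
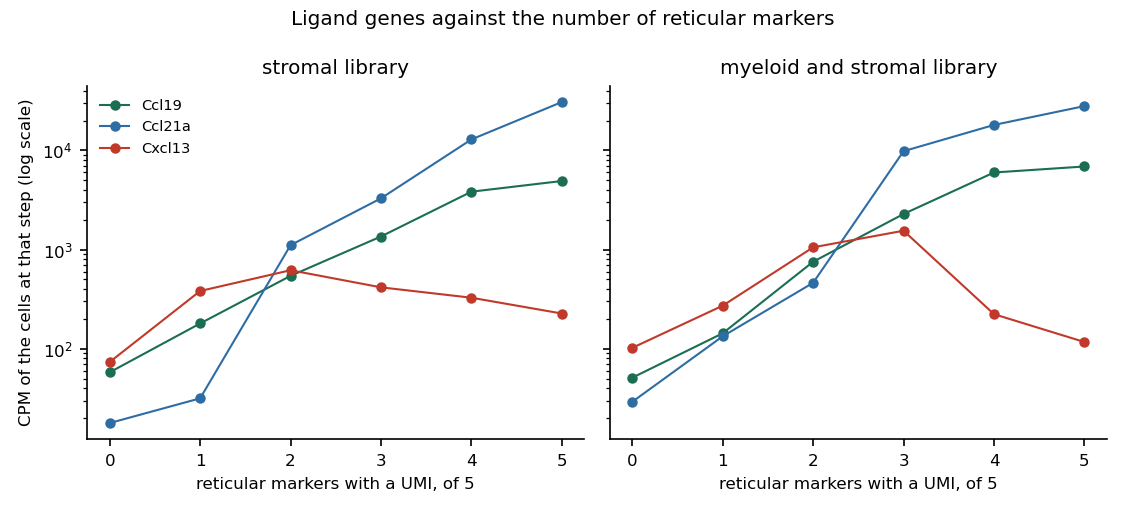
Level of the 3 ligand genes in CPM on a log axis against the number of reticular markers with a UMI, of 5, in fibroblast-like cells outside the adventitial class, 1 panel a library. Ccl19 and Ccl21a climb over the steps, and Cxcl13 peaks at 2 markers in the stromal library and at 3 in the myeloid and stromal library.

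Whether tumours alter the ligand genes of node fibroblasts was tested on 6 sums of all fibroblast-like cells, 3 conditions in 2 libraries, with edgeR's quasi-likelihood test, the library as a block and Benjamini-Hochberg adjustment over all genes tested. Ccl21a rose in 67NR nodes. It had 2586 CPM in 4T1, 2774 CPM in 67NR and 1469 CPM in naive cells of the stromal library, and 2638 CPM in 4T1, 3769 CPM in 67NR and 1660 CPM in naive cells of the myeloid and stromal library. Both tumour groups lay above the naive group in both libraries. The log2 change was 1.08 (SE 0.16, edgeR adjusted p = 0.0139) for 67NR over naive and 0.78 (SE 0.16, adjusted p = 0.0634) for 4T1 over naive, which did not pass. The 67NR call ended with a hashtag ratio of 10 in place of 3 (1.27, edgeR adjusted p = 0.0796) and without the library block (1.09, adjusted p = 0.274). Of 12169 genes tested, 3.09% passed for 67NR over naive and 1.35% for 4T1 over naive, and 0 passed between 4T1 and 67NR with edgeR, where 484 had an unadjusted p under 0.05, and 0 with DESeq2, where 128 did. The labels do not tell whether separate mice were behind the 2 libraries, so these p-values measure the spread between 6 pooled sums, which may be technical.

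The makeup of the fibroblast-like class differed beside this result, more in adventitial than in reticular cells of the stromal library. Of fibroblast-like cells in the stromal library, 13.7% were reticular for 4T1, 14.8% for 67NR and 13.4% for naive nodes, and in the myeloid and stromal library 15.0% were for 4T1, 23.7% for 67NR and 13.7% for naive nodes. Adventitial cells made up 59.0% of the 4T1, 63.4% of the 67NR and 37.1% of the naive class in the stromal library, and 65.3%, 51.3% and 51.4% in the other. Within reticular cells alone Ccl21a had 21448 CPM in 4T1, 17996 CPM in 67NR and 11729 CPM in naive nodes of the stromal library. The myeloid and stromal library gave 20273, 19464 and 17540 CPM, in the same order. Its log2 change there was 0.53 (SE 0.16, edgeR adjusted p = 0.252) for 4T1 and 0.39 (SE 0.16, adjusted p = 0.524) for 67NR over naive. Only 22, 85 and 25 cells stood behind the stromal values and 26, 54 and 24 behind the others. Of all fibroblast-like UMIs in the stromal library, reticular cells held 13.5% (67NR), 11.5% (4T1) and 11.6% (naive). The myeloid and stromal library gave 17.8% (67NR), 12.6% (4T1) and 9.36% (naive). Between naive and 67NR, this share differed more in the myeloid and stromal library, and the reticular Ccl21a level more in the stromal library. The part of each in the Ccl21a change over all fibroblast-like cells was not tested.

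Ccl19 passed in no fibroblast-like class. Over all fibroblast-like cells it had 576 CPM in 4T1, 614 CPM in 67NR and 511 CPM in naive nodes of the stromal library, and 795, 989 and 682 CPM in the other library, with log2 changes of 0.23 (edgeR adjusted p = 0.523) and 0.43 (adjusted p = 0.172). In reticular cells it had 4128 CPM in 4T1, 3578 CPM in 67NR and 3450 CPM in naive nodes of the stromal library, and 5455, 4340 and 6417 CPM in the myeloid and stromal library. The groups overlapped between libraries, and the log2 changes were 0.00 for 4T1 (SE 0.18, edgeR adjusted p = 0.996) and -0.25 for 67NR (SE 0.18, adjusted p = 0.751). In reticular cells 0.410% of 6102 genes passed for 4T1 over naive and 0.115% for 67NR over naive, and none of the 3 ligand genes was among them. In adventitial cells Ccl19 had 60.4 CPM in 4T1, 71.8 CPM in 67NR and 71.9 CPM in naive nodes of the stromal library, and 36.8, 95.1 and 42.0 CPM in the other, where 1 cell held 73.6% of the 67NR UMIs. Its log2 change for 67NR was 0.60 (edgeR adjusted p = 0.373), and without the top cell of each member it was -1.23 (adjusted p = 0.0164).

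Cxcl13 fell in adventitial cells of 67NR nodes and rose in other fibroblast-like cells of 4T1 nodes. In adventitial cells it had 204 CPM in 4T1, 191 CPM in 67NR and 531 CPM in naive nodes of the stromal library, and 134, 116 and 209 CPM in the myeloid and stromal library. The naive group was the highest of the 3 in both libraries. The log2 change was -1.18 (SE 0.22, edgeR adjusted p = 0.0388) for 67NR over naive, where 2% of 11107 genes passed, and -1.0 (SE 0.22, adjusted p = 0.131) for 4T1 over naive, where 0.036% did. In other fibroblast-like cells Cxcl13 had 347 CPM in 4T1, 314 CPM in 67NR and 94.1 CPM in naive nodes of the stromal library, and 1890, 445 and 221 CPM in the myeloid and stromal library. Here the naive group was the lowest in both libraries. The log2 change was 2.68 (SE 0.38, edgeR adjusted p = 0.0141) for 4T1 over naive, where 0.344% of 8422 genes passed, and 1.5 (SE 0.37, adjusted p = 0.107) for 67NR over naive, where 0.712% did. A single cell held 55.8% of the 4T1 UMIs in the stromal library and 79.1% in the myeloid and stromal library. A further fit left out, per library and class, the cell with most UMIs of each member over all conditions. The changes were then 1.51 (adjusted p = 0.0128) and 1.35 (adjusted p = 0.0123) by the same edgeR test. For Cxcl13 this took out the 4T1 cell of the myeloid and stromal library, with 434 UMIs. In the stromal library the highest cell had 190 UMIs, so the 4T1 cell with 111 was not removed for Cxcl13. Nor was a 67NR cell with 142 UMIs, 40.7% of its group, in the myeloid and stromal library. The changes without those cells were not tested. The 67NR call in adventitial cells ended with a hashtag ratio of 10 (edgeR adjusted p = 0.484) and with 1 more marker required (adjusted p = 0.185), and the 4T1 call in other cells ended with cells thinned to 1000 UMIs (1.60, adjusted p = 0.130) and with a hashtag ratio of 10 (3.39, adjusted p = 0.424). Without the library block neither passed (adjusted p = 0.462 and 0.469).

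The lower Cxcl13 of tumour nodes was seen in adventitial cells with Smpd3, the gene of a neutral sphingomyelinase, by a split made after these values were seen. Cells without Smpd3 were fewer. Among adventitial cells with a Smpd3 UMI, Cxcl13 had 141 CPM in 4T1, 64.4 CPM in 67NR, 722 CPM in LPS and 702 CPM in naive nodes of the stromal library, and 99 CPM in 4T1, 81.8 CPM in 67NR and 192 CPM in naive nodes of the myeloid and stromal library. Among those without, the levels were 348, 802, 332 and 279 CPM in the stromal library and 394, 403 and 253 CPM in the other, in the same order of groups. In the stromal library 67.4% of the 4T1, 82.2% of the 67NR, 72.6% of the LPS and 55.1% of the naive adventitial cells held Smpd3, and in the myeloid and stromal library 89.4% of the 4T1, 88.0% of the 67NR and 70% of the naive ones did. Without Smpd3 cells the log2 change of Cxcl13 in adventitial cells was 0.53 (edgeR adjusted p = 0.767) for 4T1 and 1.16 (adjusted p = 0.285) for 67NR over naive, so the direction turned. Only 31, 65 and 31 cells (4T1, 67NR, naive) of the stromal library and 12, 14 and 27 of the other lacked Smpd3. Cxcl13 had a UMI in 41.9%, 55.4% and 45.2% of those in the stromal library. In the other it had one in 41.7%, 28.6% and 48.1%, highest in naive nodes, unlike the CPM. The turn thus rests on few cells.

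In reticular cells Cxcl13 had 57.6 CPM in 4T1, 342 CPM in 67NR and 25.4 CPM in naive nodes of the stromal library, and 2029, 194 and 30.8 CPM in the myeloid and stromal library. Naive cells were lowest in both libraries, and 75.7% of the 2029 CPM came from 1 cell. The log2 changes of 4.74 (SE 1.29, edgeR adjusted p = 0.220) for 4T1 and 3.73 (SE 1.29, adjusted p = 0.417) for 67NR over naive did not pass. The differences between classes were tested in joint fits added after these values were seen. For 4T1 the change in other fibroblast-like cells exceeded that in adventitial cells by 3.67 on the log2 scale (edgeR adjusted p = 0.0854), and for 67NR by 2.68 (adjusted p = 0.167). Without the top cell of each member these differences were 2.50 (adjusted p = 0.0522) and 2.89 (adjusted p = 0.00273). Among other fibroblast-like cells, that setting did not remove the most loaded cell of every condition, as given above. The change in reticular cells exceeded that in adventitial cells by 5.87 (adjusted p = 0.305) and 5.01 (adjusted p = 0.461).

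Ccl21a and Ccr7 also passed in adventitial cells of 67NR nodes, each on a thin base. Ccl21a had 5.26 CPM in 4T1, 178 CPM in 67NR and 18.7 CPM in naive nodes of the stromal library, and 4.88, 285 and 7.58 CPM in the other, with a log2 change of 4.25 for 67NR (SE 0.38, edgeR adjusted p = 0.0115). In 67NR nodes 1 cell held 48.0% of these UMIs in the stromal library and 68.8% in the myeloid and stromal library, and without the top cell of each member the change was -0.62 (adjusted p = 0.502). The change of 4T1 over 67NR, -5.47 (edgeR adjusted p = 0.00291), rested on those cells too. Ccr7, which encodes a receptor of leukocytes, had 4.73 CPM in 4T1, 0.455 CPM in 67NR and 0.934 CPM in naive adventitial cells of the stromal library, and 21.7, 6.57 and 58.3 CPM in the library that also held dendritic cells. Its log2 change for 67NR was -2.95 (SE 0.56, edgeR adjusted p = 0.0408), at levels close to the Ccr7 of neutrophil-like cells in that library (9.34, 17.2 and 55.7 CPM in 4T1, 67NR and naive nodes).

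**Figure D3:**
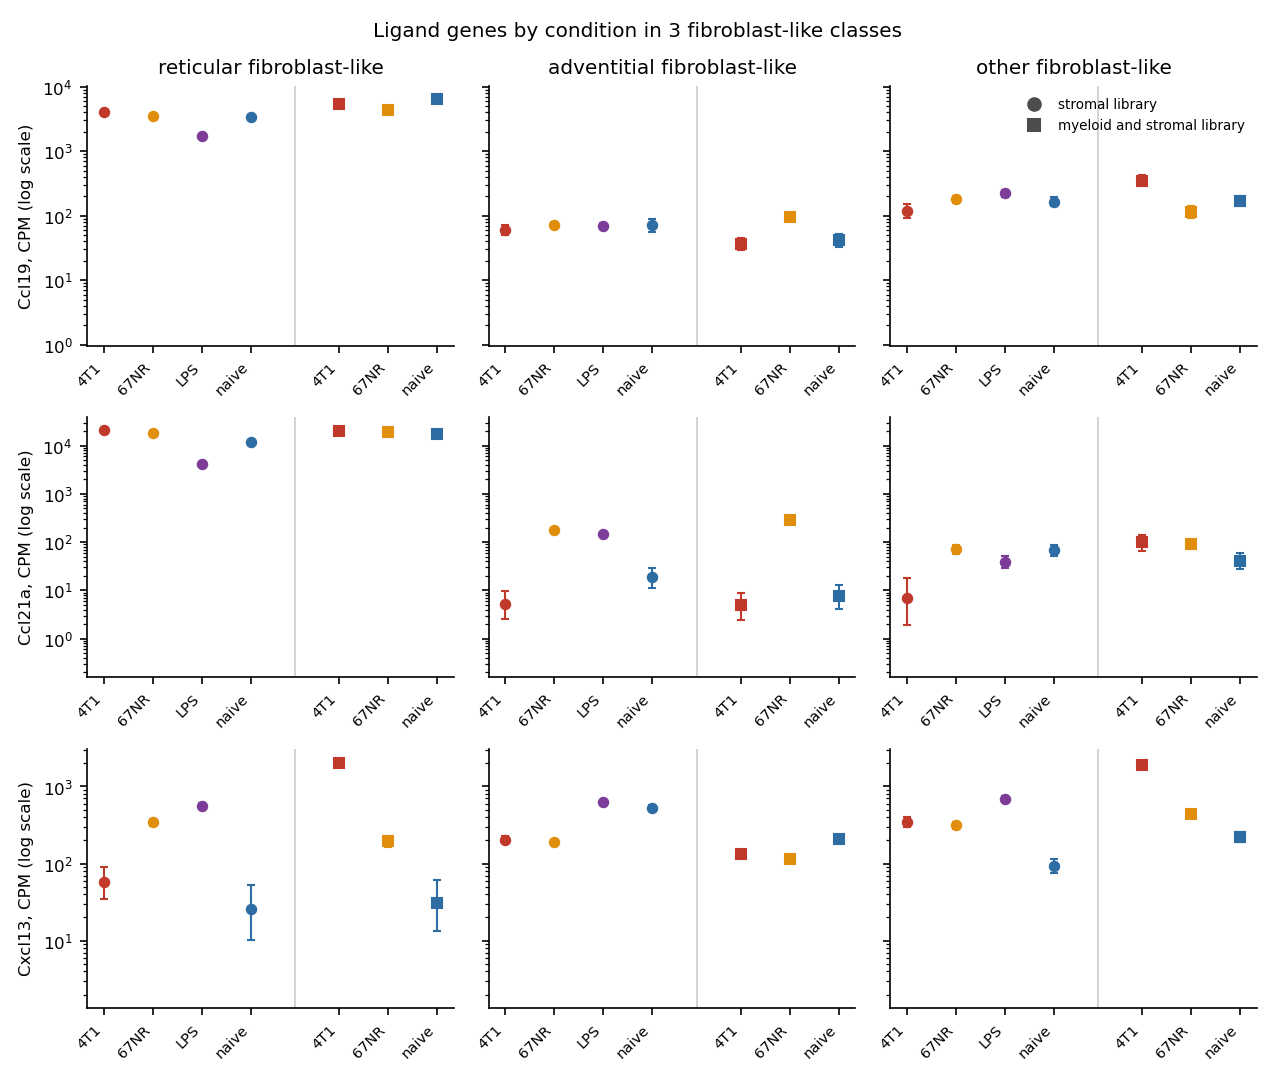
Level of each ligand gene in CPM on a log axis, by condition, in reticular, adventitial and other fibroblast-like cells, with the stromal library left of the grey line (circles), the myeloid and stromal library right of it (squares) and 95% Poisson intervals as bars. Cxcl13 of naive nodes is the highest of the tumour and naive groups in adventitial cells and the lowest in other and reticular cells, and Ccl21a of LPS nodes is the lowest in reticular cells.

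LPS nodes stood in the stromal library only, as 1 pooled sample, so their differences have no replicate check and no test. Reticular cells of LPS nodes had less of both CCR7 ligands and more Cxcl13. Ccl21a had 4161 CPM in LPS and 11729 CPM in naive reticular cells, a log2 ratio of -1.49 (-1.56 to -1.43), and Ccl19 had 1731 CPM in LPS and 3450 CPM in naive cells, a log2 ratio of -1.0 (-1.11 to -0.88). Cxcl13 had 559 CPM in LPS and 25.4 CPM in naive reticular cells, a log2 ratio of 4.46 (3.41 to 5.78). All 3 intervals excluded 0, as did those of 21.9% of 2861 genes in these 53 LPS and 25 naive cells. Reticular cells were 14.0% of fibroblast-like cells in LPS and 13.4% in naive nodes, and their median UMIs were 17076 and 9558.

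Outside the reticular class the LPS pattern differed by gene. In other fibroblast-like cells Cxcl13 had 697 CPM in LPS and 94.1 CPM in naive nodes, a log2 ratio of 2.89 (2.57 to 3.22), where 32.1% of 3836 genes had an interval that excluded 0. Their Ccl19 had 224 CPM in LPS and 165 CPM in naive nodes, a log2 ratio of 0.44 (0.15 to 0.73) and opposite in sign to that of reticular cells. Their Ccl21a had 39.4 and 68.4 CPM, a log2 ratio of -0.80 (-1.36 to -0.24). But 57.8% of those naive Ccl21a UMIs stood in 1 cell, and the direction turned without the top cell of each member. In adventitial cells Cxcl13 had 623 CPM in LPS and 531 CPM in naive nodes, a log2 ratio of 0.23 (0.10 to 0.36), where 19.4% of 8099 genes had an interval that excluded 0. Ccl19 of adventitial cells had 70.0 CPM in LPS and 71.9 CPM in naive nodes, a log2 ratio of -0.04 (-0.40 to 0.34). Their Ccl21a had 146 CPM in LPS and 18.7 CPM in naive nodes, but 57.5% of the LPS UMIs stood in 1 cell. No cell of LPS nodes had 4 or more follicular dendritic markers.

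Venule cells were numerous enough to set side by side in tumour nodes only. Ccl21a had 9381 CPM in 34 venule-like cells of 4T1 nodes and 5145 CPM in 41 of 67NR nodes, a log2 ratio of 0.87 (0.81 to 0.92) without a replicate check, and the most loaded cell held 18.8% and 15.1% of the UMIs. Over all blood endothelial-like cells Ccl21a had 3574 CPM in 4T1, 2142 CPM in 67NR, 1699 CPM in LPS and 2147 CPM in naive nodes. There 4T1 over naive had a log2 ratio of 0.74 (0.67 to 0.80), 67NR over naive one of 0.00 (-0.07 to 0.06) and LPS over naive one of -0.34 (-0.42 to -0.26). These sums mix venule and other cells: venule-like cells were 34 of 190 in 4T1, 41 of 203 in 67NR, 14 of 138 in LPS and 17 of 166 in naive nodes.

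Further genes of the pathway were read in the fibroblast-like test from 7 lists. Of 14 other stromal cues, 3 rose in 4T1 and 2 in 67NR nodes, with median log2 changes of 0.57 and 0.47, against -0.01 and -0.01 over all genes tested. Of all 12169 genes tested, 1.35% passed in either direction for 4T1 and 3.09% for 67NR over naive. Il33, an alarmin of stromal nuclei, had 480 CPM in 4T1, 499 CPM in 67NR and 176 CPM in naive nodes of the stromal library and 398, 430 and 168 CPM in the other, log2 changes of 1.38 (edgeR adjusted p = 0.0138) and 1.45 (adjusted p = 0.00439). Il6, an inflammatory cytokine gene, rose by 0.99 (edgeR adjusted p = 0.0317) and 0.92 (adjusted p = 0.0221), and Pdpn, which encodes the reticular cell surface protein podoplanin, by 0.75 in 4T1 (adjusted p = 0.0458). Tnfsf11, which encodes RANKL, had log2 changes of 2.42 (edgeR adjusted p = 0.0805) and 1.91 (adjusted p = 0.106) and did not pass. Of 5 scavenging receptors, Ackr1 rose in 4T1 nodes with 1.26 (edgeR adjusted p = 0.0483) and had 1.05 in 67NR nodes (adjusted p = 0.0505), with medians of 0.64 and 0.81 for the list. ACKR1 is the chemokine-binding receptor of venules and red cells.

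None of the other lists had a gene that passed. Of the lymphotoxin genes 12 of 14 were tested, with medians of 0.25 and 0.04, and Ltbr, the receptor that keeps the ligand genes on, had 0.36 in 4T1 (edgeR adjusted p = 0.463). Of the receptor signalling genes 17 of 20 were tested (medians -0.11 and -0.22), of the other homing receptors 7 of 14 (-0.53 and -0.95) and of the regulators of receptor genes 9 of 13 (-0.26 and -0.07). Of the ligand copies and neighbours 1 of 13 was tested, Ccl27a, with -0.59 and -0.32. Several of these are leukocyte genes, such as Rgs1, a brake on chemokine receptor signalling, with 0 to 0.349 CPM in fibroblast-like cells of the stromal library and 9.12 CPM in 4T1, 5.92 CPM in 67NR and 28.5 CPM in naive nodes of the library that also held leukocytes.

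Across 57 sums of class by library, the genes most like each member in log2(CPM + 1) were found among 19419 genes, as a description of sums that share libraries and classes. For Ccl19 these were Htra1 (Pearson r = 0.95), Tagln, Des, Slc36a2 and C4b, among them the smooth muscle genes Tagln and Des. For Ccl21a they were Mylk (r = 0.95), a contractile kinase gene, Clu, Slc16a9, Lepr and Robo2. For Cxcl13 they were Slc36a2 (r = 0.92), Pappa, Htra1, Igfbp5 and Epb41l3, so Htra1 and Slc36a2 stood beside both Ccl19 and Cxcl13. For Ccr7 they were Cytip (r = 0.90), Gpr132, P2ry10, Stat4 and Crlf3, and for Cxcr5 Fcrl1 (r = 0.91), Bank1, Gm30211, Cd22 and Cenps, with the B cell genes Fcrl1, Bank1 and Cd22 among them.

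Ccr7, the receptor gene for CCL19 and CCL21, was highest in migratory dendritic-like cells, gated on genes such as Fscn1, Ccl22 and Socs2. These 457 cells, 8.44% of the myeloid and stromal library, held 69.6% of its Ccr7 UMIs. The level was 2832 CPM in 4T1, 2761 CPM in 67NR and 2685 CPM in naive nodes, with log2 ratios over naive of 0.08 (0.03 to 0.12) and 0.04 (-0.01 to 0.09). The 114 such cells of the naive axillary atlas had 2832 CPM. In cDC2-like cells Ccr7 had 932 CPM in 4T1, 1064 CPM in 67NR and 1034 CPM in naive nodes. Dendritic Ccr7 was thus near equal in the 3 conditions, at 1 pooled sample each.

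Among T cells Ccr7 was higher in naive-type cells than in follicular helper-like cells in every condition. Naive Cd4+ cells had 1266 CPM in 4T1, 949 CPM in 67NR and 1178 CPM in naive nodes, and naive Cd8+ cells had 1127, 1128 and 1150 CPM. Follicular helper-like cells, Cd4+ with at least 4 of 6 markers such as Bcl6, Pdcd1 and Il21, had 483, 509 and 465 CPM. In Foxp3+ cells, of the regulatory type, Ccr7 had 601 CPM in 4T1, 573 CPM in 67NR and 822 CPM in naive nodes, log2 ratios over naive of -0.45 (-0.52 to -0.38) and -0.52 (-0.59 to -0.45). For 4T1 over naive, 28.1% of 8126 genes in Foxp3+ cells had an interval that excluded 0. Activated Cd8+ cells had 785 CPM in 4T1, 479 CPM in 67NR and 612 CPM in naive nodes, so the 2 tumour groups lay on either side of the naive group. The naive and activated classes were gated on other genes, among them Lef1, Klf2 and S1pr1 for naive cells and Cd44 and Cxcr3 for activated cells.

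Cxcr5, the CXCL13 receptor gene, was highest in B-like cells and stood at low levels elsewhere. B-like cells outside the germinal centre class had 219 CPM in 4T1, 212 CPM in 67NR and 272 CPM in naive nodes of the myeloid and stromal library, at 39, 33 and 23 cells. Their Ccr7 was 403, 432 and 534 CPM. Germinal-centre B-like cells had lower CPM of both: 88.2 CPM of Cxcr5 and 4.41 CPM of Ccr7 in 4T1, and 132 CPM of Cxcr5 and 15.2 CPM of Ccr7 in 67NR nodes. The share of cells with a Cxcr5 UMI was not lower to that degree, at 77.2% of 101 germinal-centre and 78.9% of 95 other B-like cells. In the axillary atlas the shares were 61.3% and 59.5%, at medians of 11661 and 5134 UMIs. In follicular helper-like cells, which enter follicles through CXCR5, Cxcr5 had 36.3 CPM in 4T1, 32.7 CPM in 67NR and 17.5 CPM in naive nodes. The log2 ratios over naive were 1.06 (0.34 to 1.82) and 0.91 (0.15 to 1.70), where 23.9% of 5074 genes had an interval that excluded 0 for 4T1 over naive, and the 127, 107 and 72 cells held 66, 48 and 22 Cxcr5 UMIs. All Cd4+ cells had 17.2 CPM in 4T1, 14.7 CPM in 67NR and 6.07 CPM in naive nodes. The same follicular helper gate in the naive axillary atlas gave 75 cells, with Cxcr5 in 2 (5.39 CPM, 3 of 4 UMIs in 1 cell). Their Ccr7 was 661 CPM, and Cd8+ cells of that atlas had 9.13 CPM of Cxcr5. The Cxcr5 level of helper-like cells in the T cell library was thus not seen again there.

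Cxcr5 UMIs also stood outside the B-like and follicular helper-like classes. Neutrophil-like cells held 41.1% of the Cxcr5 UMIs of the myeloid and stromal library, at 52.1 CPM in 4T1, 40.6 CPM in 67NR and 39.2 CPM in naive nodes. They had 1069 Cxcr5 UMIs per 100 UMIs of the B cell gene Cd79a, against 9.97 in B-like cells, and Cd79a stood in 1.19% of them. A Cxcr5 UMI stood in 17.5% of neutrophil-like cells at a median of 4496 UMIs, against 1.63% of monocyte-like cells at 19922 UMIs and 0 of 92 NK-like cells at 6269 UMIs in the same library. In the axillary atlas it stood in 1 of 24 neutrophil-like cells, so the signal was not seen again there at that number. Cd8+ T-like cells of the T cell library had 11.6 CPM in 4T1, 13.5 CPM in 67NR and 9.35 CPM in naive nodes, at 1574 Cxcr5 UMIs per 100 of Cd79a. Migratory dendritic-like cells had 25.4 CPM of Cxcr5 in 4T1, 12.9 CPM in 67NR and 3.09 CPM in naive nodes, log2 ratios over naive of 3.04 (2.26 to 3.87) and 2.06 (1.12 to 3.02) from 54, 23 and 19 UMIs. In that class 36.2% of 7241 genes had an interval that excluded 0 for 4T1 over naive, and the class held 2, 7 and 7 Cd79a UMIs in 4T1, 67NR and naive nodes. The cell with most Cxcr5 held 20.4% of the 4T1 and 39.1% of the 67NR UMIs.

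**Figure D4:**
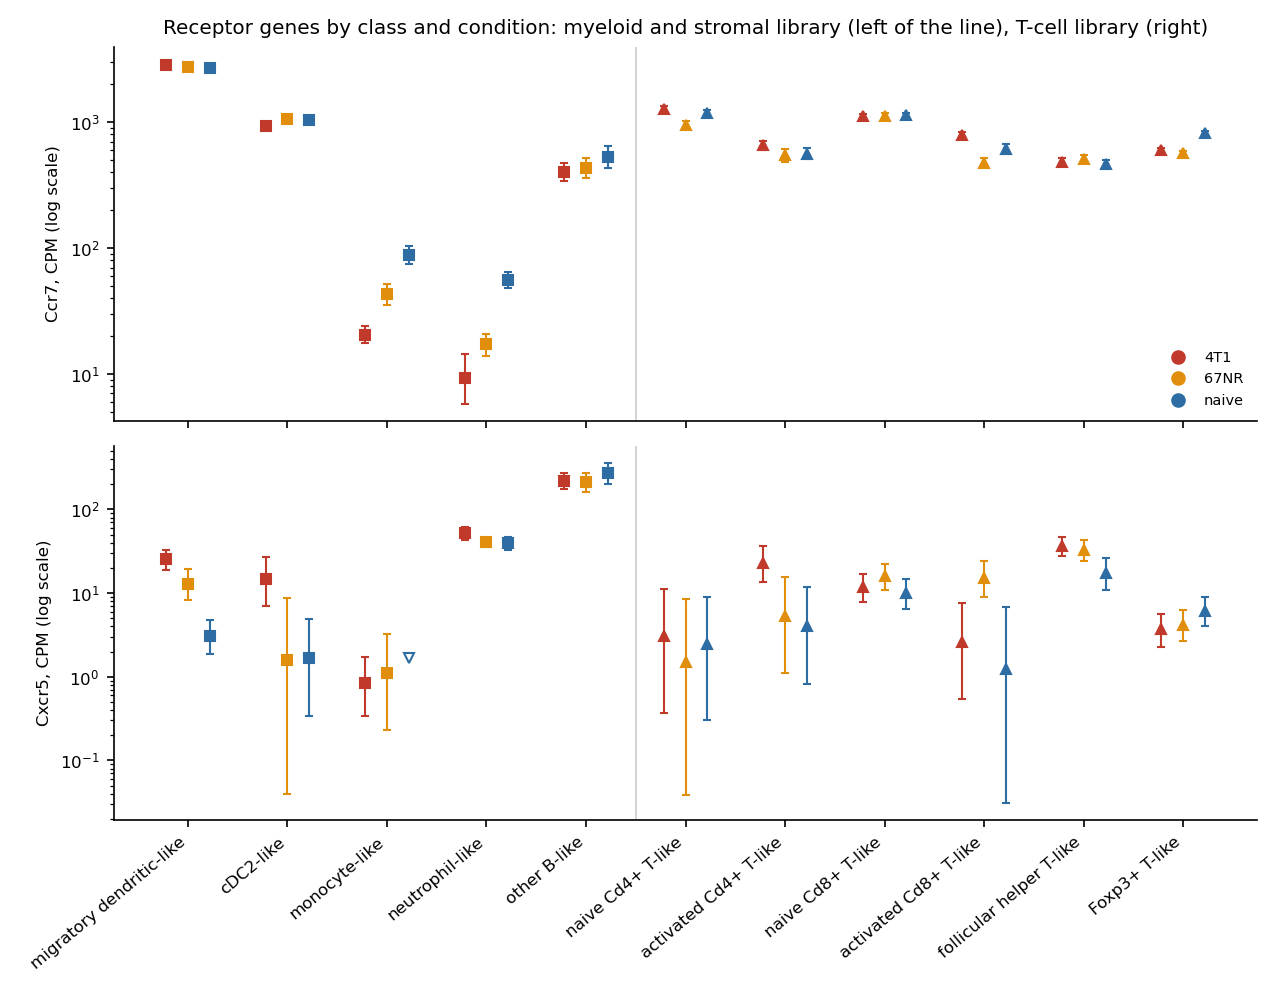
Level of Ccr7 and Cxcr5 in CPM on a log axis, by class and condition, with the myeloid and stromal library left of the grey line (squares), the T cell library right of it (triangles), 95% Poisson intervals as bars and open triangles at the level of 3 UMIs for 0 UMIs. Migratory dendritic-like cells have 2685 to 2832 CPM of Ccr7 in all 3 conditions, and their Cxcr5 lies in the order 4T1, 67NR, naive.

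The 2 naive atlases gave the receptor genes by node, with 1 library a node. B-like cells outside the germinal centre class had 584 CPM of Ccr7 in the axillary and 520 CPM in the mediastinal node, a log2 ratio of 0.17 (0.05 to 0.28), and 206 and 152 CPM of Cxcr5, a log2 ratio of 0.44 (0.23 to 0.65). Germinal-centre B-like cells, 462 axillary and 45 mediastinal ones, had 28.8 CPM of Ccr7 in the axillary and 85.1 CPM in the mediastinal node. Only 39 UMIs stood behind the mediastinal value, 35.9% of them in 1 cell. Their Cxcr5 had 93.7 and 93.8 CPM in the axillary and mediastinal nodes. Foxp3+ cells had 936 and 939 CPM of Ccr7 in the axillary and mediastinal nodes. T-like cells with Trdc, the delta chain gene of the T cell receptor, and without Cd4 or Cd8 had 109 CPM of Ccr7 in the axillary and 711 CPM in the mediastinal node, a log2 ratio of -2.71 (-2.78 to -2.63). The class was not alike in the atlases: its CD4 and CD8 antibody medians were 5 and 3 counts in the axillary and 35 and 35 in the mediastinal node, close to the 35.5 and 40 counts of mediastinal Cd4+ and Cd8+ cells, and its median UMIs were 7433 and 2399.5. T-like Cxcr5 differed between the atlases along with B cell RNA: it had 2.77 CPM in the axillary and 39.7 CPM in the mediastinal node, and Cd79a stood in 2.63% of axillary and 55.5% of mediastinal T-like cells. Mediastinal T-like cells had 10.5 Cxcr5 UMIs per 100 of Cd79a, close to the 11.2 of mediastinal B-like cells, while axillary T-like cells had 57.1 and axillary B-like cells 7.47. Receptor levels of mediastinal T-like cells are read here with that background.

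The CXCR5 antibody did not separate the cells that the RNA separated. In the axillary atlas a Cxcr5 UMI stood in 59.9% of B-like cells, 1.67% of T-like cells and 0.789% of NK-like cells, at medians of 5638.5, 7231 and 5436.5 UMIs, while the antibody had a median of 2 counts, with quartiles of 1 and 3, in each of those classes. B-like cells with and without a Cxcr5 UMI both had a median of 2. Against the 99th percentile of Cd8+ cells, 8 counts, 0.386% of B-like cells (0.167 to 0.759%) and 0.327% of T-like cells lay above, and 7.89% of migratory dendritic-like cells did (3.67 to 14.5%). Those dendritic-like cells also had more counts of all antibodies together, a median of 1146.5 against 829 in B-like and 574.5 in T-like cells, and a Cxcr5 UMI in 1.75% of cells. In the mediastinal atlas the antibody median was 1 in B-like and 4 in T-like cells, opposite to the RNA, which stood in 26.4% of B-like and 9.84% of T-like cells at medians of 1833.5 and 2294.5 UMIs. Across cells, Pearson r between the CXCR5 antibody and the other 23 antibodies was 0.022 to 0.114 in the axillary and 0.493 to 0.745 in the mediastinal atlas, as a description of cells of 1 library that share depth. No antibody to CCR7 was among the 24.

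**Figure D5:**
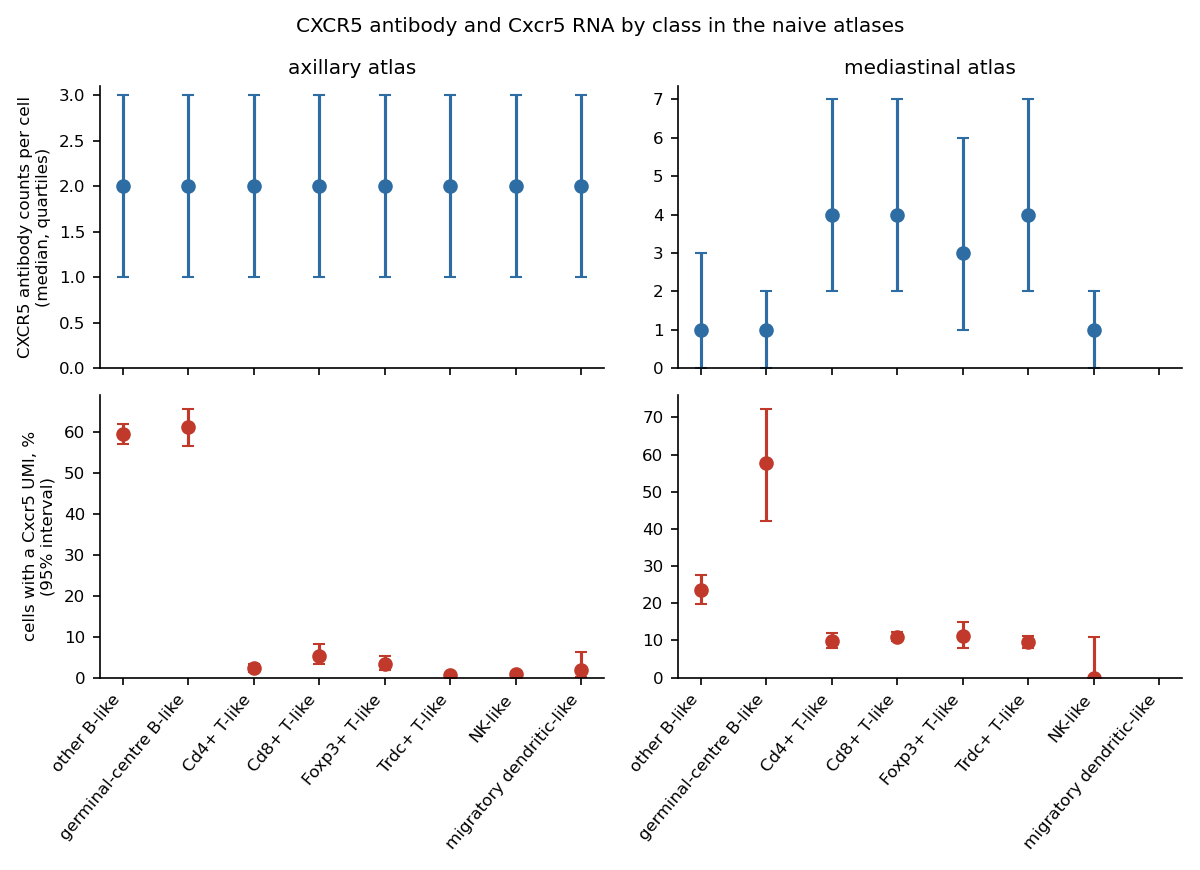
CXCR5 antibody counts per cell (top, median with quartiles) and percent of cells with a Cxcr5 UMI (bottom, with 95% Clopper-Pearson intervals) by class in the axillary (left) and mediastinal (right) atlas; the mediastinal atlas has no migratory dendritic-like cells to show. In the axillary atlas the antibody median is 2 in every class shown, while the RNA stands in about 60% of B-like cells and few others.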

How the data were processed

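The data are droplet libraries of mouse nodes (10x Genomics 3' kit). The authors deposited them as raw UMI counts, and the submitters' processing notes name Cell Ranger 7.0 and mm10. Cells were kept with 500 or more UMIs, 250 or more genes, 10% mitochondrial UMIs or fewer and, in the hashtagged libraries, a leading hashtag with 10 or more counts and 3 or more times the count of the next. This removed doublets of different conditions, while doublets within a condition and in the atlases stayed in.

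A cell took the lineage with the highest mean log-normalised marker level, if 50% or more of its markers were found and each other lineage scored under 0.5 of it. This scoring was chosen on the data, and the members, markers and gene lists were chosen with earlier results of these data known. Named genes are the members, list genes that passed or had the largest changes, and the 5 most alike genes. UMIs were summed per library, condition and class. Classes with 2 libraries were tested with edgeR 4.0.16 in R 4.3.3 (glmQLFit, glmQLFTest, filterByExpr, TMM, Benjamini-Hochberg, threshold 0.05, 2 residual degrees of freedom). The library was the replicate block, as its conditions share 1 preparation per the labels. Other ratios are of CPM with exact conditional binomial 95% intervals and no test, and a class with 0 UMIs is set at 3 UMIs. Both tumour comparisons share the naive sums. DESeq2 1.42.0 was an alternative tool. Scripts ran on Python 3.11.15 with scipy 1.17.1 and pandas 2.3.3 and were tested on simulated data. Gene positions are those of GENCODE on GRCm38.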

Additional observations from a re-analysis of the deposited data

Results flagged for a closer look

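Values are log2 changes over naive, in the stromal library first and the myeloid and stromal library second, and they are listed because classes of 1 contrast moved in opposite directions. For Ccl21a in 67NR nodes, the change in reticular cells lay below that in adventitial cells by a log2 difference of -3.76 (edgeR adjusted p = 0.00686), and without the top cell of each member the difference was 1.12 (adjusted p = 0.385). For Ccl21a in 4T1 nodes, reticular cells had 0.87 and 0.21 and adventitial cells had -1.83 and -0.64, and the difference of 1.83 had an edgeR adjusted p of 0.454. The adventitial values rest on 10 UMIs in 4T1 against 20 in naive cells and on 11 against 13, below the Ccl21a level of neutrophil-like cells, and the interval of the second, -1.94 to 0.64, includes 0.

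For Cxcl13 in 4T1 nodes, reticular cells had 1.18 and 6.04, adventitial cells -1.38 and -0.65 and other fibroblast-like cells 1.88 and 3.09. For Cxcl13 in 67NR nodes, reticular cells had 3.75 and 2.66, adventitial cells -1.47 and -0.85 and other fibroblast-like cells 1.74 and 1.01. The tests of these differences are given with the results, and that of other against adventitial cells passed for 67NR without the top cell of each member (2.89, edgeR adjusted p = 0.00273). That removal did not take out the most loaded cell of every condition.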

How the results depend on the processing

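For 87 results 735 alternative values were computed. Among those of the main results, 117 kept direction and call, 21 newly passed, 15 no longer passed, 13 moved and 2 turned direction. Joint fits, the removal of top cells and the removal of Smpd3 cells were chosen after seeing the data. Top cells were taken out per library and class over all conditions, so the most loaded cell of a condition could stay in. Genes that passed in fibroblast-like cells, 164 for 4T1 over naive, numbered 108 at 5% mitochondrial UMIs or fewer, 102 after thinning cells to 1000 UMIs each (3828 genes tested), 2 with a hashtag ratio of 10 and 997 with no gene filter. For 67NR over naive, 376 passed, against 201 thinned, 32 with a hashtag ratio of 10 and 1289 with no gene filter. For 4T1 over 67NR, 0 passed, against 1 thinned, 114 with no gene filter and 4 without Smpd3 cells. With no replicate block, 0 genes passed for either tumour over naive (1108 and 1233 at an unadjusted p under 0.05).

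With no replicate block the log2 changes were -1.26 (edgeR adjusted p = 0.462) for adventitial Cxcl13 in 67NR, 1.09 (adjusted p = 0.274) for Ccl21a in 67NR and 2.93 (adjusted p = 0.469) for Cxcl13 of other cells in 4T1. Adventitial Cxcl13 in 4T1 was -1.0 with DESeq2 (adjusted p = 0.0105), -1.63 thinned (edgeR adjusted p = 0.00972), -0.98 with no gene filter and 0.53 without Smpd3 cells, and in 67NR it was -1.12 with a hashtag ratio of 10 (edgeR adjusted p = 0.484), -1.24 with 1 more marker (adjusted p = 0.185) and 1.16 without Smpd3 cells. Ccl21a over all fibroblast-like cells in 4T1 passed with DESeq2 (0.78, adjusted p = 0.00195), without TMM (0.74), with 1 more marker (0.91), with no gene filter (0.79) and without Smpd3 cells (1.37). In 67NR it was 1.27 with a hashtag ratio of 10 (edgeR adjusted p = 0.0796). Cxcl13 of other cells in 4T1 was 1.60 thinned (edgeR adjusted p = 0.130) and 3.39 with a hashtag ratio of 10 (adjusted p = 0.424), and in 67NR it passed with DESeq2 (1.5, adjusted p = 0.0137), with no gene filter (1.5) and without top cells (1.35). Reticular Cxcl13 passed in 4T1 thinned (4.48) and with no gene filter (4.78), and in 67NR thinned (3.94), with a hashtag ratio of 10 (3.44) and with no gene filter (3.86). With 1 library left out there was no test: adventitial Cxcl13 lay between -1.38 and -0.65 in 4T1 and between -1.47 and -0.85 in 67NR, Ccl21a in 67NR at 0.92 without the myeloid and stromal library, Cxcl13 of other cells between 1.88 and 3.09 in 4T1 and between 1.01 and 1.74 in 67NR, and reticular Cxcl13 between 1.18 and 6.04 in 4T1.

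For LPS over naive in reticular cells, Ccl19 was -1.41 thinned and -1.35 with a hashtag ratio of 10, and Ccl21a was -1.81 with a hashtag ratio of 10. Directions turned for adventitial Ccl19 in 67NR without top cells (-1.23), adventitial Ccl21a in 4T1 with 1 more marker (0.0926) and in 67NR without top cells (-0.62), Ccl21a of other cells in 4T1 with 1 more marker (1.77) and in LPS without top cells (0.49), and reticular Ccl21a in 67NR with 1 more marker (-0.0355). The cause was not tested. The number of pooled sums limits all of these values.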
